A study of Mus musculus with 20 samples.

Results

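The genes described are those that encode the proteins of the cytosolic ribosome. They were chosen by name, as the rows of the count table whose gene symbol is Rpl or Rps followed by a number and the letters a, l or x, together with Rplp0, Rplp1, Rplp2 and Rpsa. This gave 83 of the 22660 genes in the table, 51 of the large subunit and 32 of the small subunit. RNA was measured by sequencing in the plantaris, a fast hind limb muscle, of 20 C57BL/6J male mice of 2 years, 5 in each of 4 groups. MOV mice had mechanical overload of the plantaris through surgical removal of part of the gastrocnemius and soleus on both sides. Sham mice had the skin opened only, and all muscles were collected 14 days after surgery. D + Q mice were gavaged with quercetin at 50 mg/kg together with dasatinib at 5 mg/kg, drugs combined as a senolytic (a treatment meant to remove senescent cells), and vehicle mice with polyethylene glycol alone. The gavages were on days 7 and 10, although for sham mice the study's text also names day 14 as the second. The groups were thus sham and MOV mice on vehicle and sham and MOV mice on D + Q, and no animal was in more than 1 group.

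A ribosome is built from a large and a small subunit, each a core of ribosomal RNA with many proteins on it, and most of these proteins are made by 1 gene that every cell uses. Striated muscle is an exception: its fibers use Rpl3l, a paralog found in skeletal muscle and heart, in the place of Rpl3, which other cells and immature fibers use. The messages of ribosomal proteins begin with a C followed by a run of C and T letters (the terminal oligopyrimidine, or TOP, motif), through which mTORC1 and the RNA binding protein Larp1 set how strongly they are translated when a muscle grows.

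The libraries held 17887532 to 26234518 counts each. Levels are given as CPM (counts scaled to a library of fixed size) after TMM scaling, which sets the bulk of genes level between libraries, and changes between groups as log2 fold changes with their standard error (SE), from edgeR's quasi-likelihood test with p-values adjusted over all genes tested and a threshold of 0.05. Of the 83 genes, 80 were tested in every comparison. The other 3 (Rpl39l, and Rpl6l and Rpl32l, both annotated as processed pseudogenes) were too low to test. The tissue label was checked against adult fast fiber genes, and all 10 were among the measured genes in every group, with summed levels of 81607 CPM or more in each mouse.

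Rpl3l was high in sham muscle and fell with MOV, while Rpl3 was low in sham muscle and rose. On GRCm39, Rpl3l lies at chr17:24946751-24955119 on the plus strand (ENSMUSG00000002500.17) and Rpl3 at chr15:79961825-79976069 on the minus strand (ENSMUSG00000060036.16). Their coding sequences were identical at 74.2% of aligned bases, and their longest shared run was 22 bases. On the opposite strand Rpl3 overlaps Syngr1 and the lncRNA Gm63245 and Rpl3l overlaps the lncRNA Gm64443. Many of the other genes overlap an annotated gene too. Among those named below, Rps4l overlaps Tmtc1, Rpl12 Lrsam1 and Rpl5 Dipk1a on the opposite strand, and Rpl36al overlaps Gm49383 on the same strand. Whether counting used the strand is not given in the sources used here.

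Rpl3l measured 491, 570.0, 520.2, 477 and 469.7 CPM in the 5 vehicle sham mice and 472, 464, 481, 426 and 461 CPM in the 5 D + Q sham mice. It measured 300.5, 321, 263, 251 and 284 CPM in vehicle MOV mice and 259.7, 287, 242, 287 and 242 CPM in D + Q MOV mice. Every MOV mouse was below every sham mouse. Rpl3l was 1.76-fold lower with MOV in vehicle mice (log2 fold change -0.82, SE 0.085, adjusted p = 1.13e-06) and 1.69-fold lower in D + Q mice (log2 fold change -0.76, SE 0.066, adjusted p = 1.82e-08).

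Rpl3 measured 40.9, 43.3, 44.2, 43.8 and 41.8 CPM in vehicle sham mice and 35.8, 57.1, 47.4, 50.5 and 43.1 CPM in D + Q sham mice. It measured 139, 121, 135, 164 and 156 CPM in vehicle MOV mice and 146, 116, 170.3, 132 and 152 CPM in D + Q MOV mice. Again the sham and MOV mice did not overlap, now with the MOV mice above. Rpl3 was 3.37-fold higher with MOV in vehicle mice (log2 fold change 1.75, SE 0.083, adjusted p = 9.89e-10) and 3.16-fold higher in D + Q mice (log2 fold change 1.66, SE 0.13, adjusted p = 3.14e-07). Among the 80 genes tested it had the largest rise and Rpl3l the largest fall in both comparisons, and the signs of both held under every scaling tried.

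**Figure D1:**
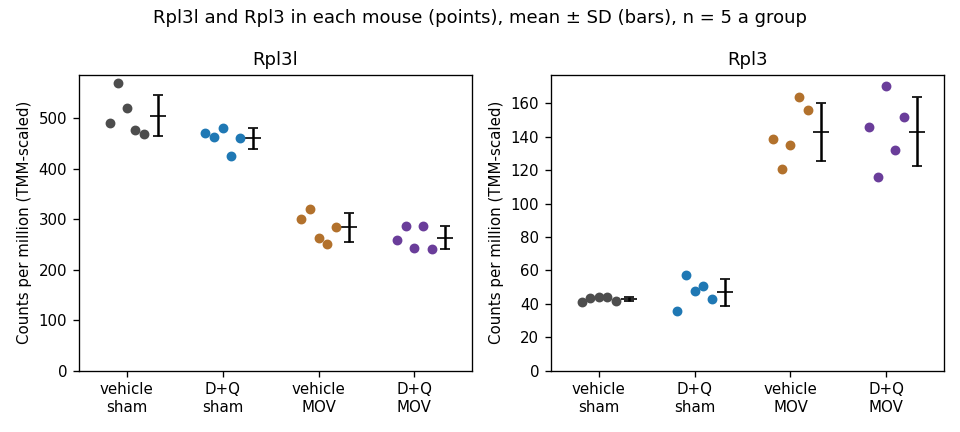
Level of Rpl3l (left) and Rpl3 (right) in TMM-scaled CPM in each of 20 mice, with points for mice and black bars for the mean ± SD of 5 mice. All 10 MOV mice lie below all 10 sham mice for Rpl3l and above them for Rpl3, and vehicle and D + Q mice of the same surgery overlap.

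The balance of the pair does not depend on how libraries are scaled. Divided by transcript length (1381 and 1078 bases, the medians over annotated coding transcripts), Rpl3l made up 90.4, 91.1, 90.2, 89.5 and 89.8% of the pair in vehicle sham mice and 91.2, 86.4, 88.8, 86.8 and 89.3% in D + Q sham mice. In vehicle MOV mice it made up 62.8, 67.5, 60.3, 54.5 and 58.7% and in D + Q MOV mice 58.2, 65.9, 52.6, 63.0 and 55.5%. Rpl3l thus remained the more abundant member per length in each of the 20 mice, by a smaller margin after MOV. The group means were 90.2 ± 0.637% (SD, n = 5) in vehicle sham, 88.5 ± 1.94% in D + Q sham, 60.8 ± 4.85% in vehicle MOV and 59.0 ± 5.43% in D + Q MOV. With the lengths of the canonical transcripts (1420 and 1355 bases), an alternative chosen after seeing the data, the means were 91.8%, 90.4%, 65.4% and 63.7%.

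The ratio of Rpl3l to Rpl3 was 5.92-fold lower with MOV in vehicle mice (difference of mean log2 ratios -2.57) and 5.38-fold lower in D + Q mice (-2.43). In both, the two-sided exact permutation p was 0.00794 (adjusted p = 0.0159 over 4 comparisons), the smallest value that 5 mice against 5 can give. D + Q mice had a lower ratio than vehicle mice by 0.243 on the log2 scale in sham muscle (exact permutation p = 0.119, adjusted p = 0.159) and by 0.104 in MOV muscle (exact permutation p = 0.603, adjusted p = 0.603), and neither passed the threshold. Without D + Q sham mouse 1, the sham difference was -0.344 with an adjusted p of 0.0212 (exact permutation test), so the call depends on that mouse.

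**Figure D2:**
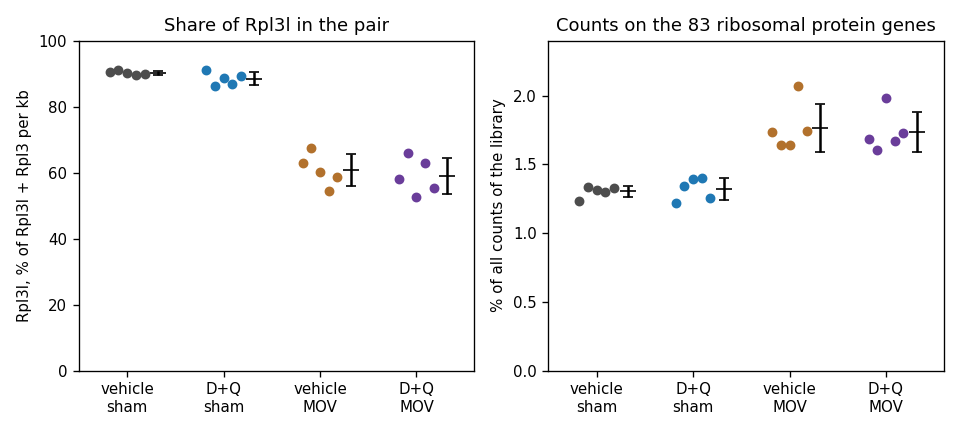
Left, Rpl3l as a percent of Rpl3l plus Rpl3, each per kb of transcript; right, the percent of all counts of a library that fell on the 83 ribosomal protein genes. Points are mice and black bars the mean ± SD of 5 mice; the 10 MOV mice lie below the 10 sham mice on the left (52.6 to 67.5% against 86.4 to 91.2%) and above them on the right (1.60 to 2.07% against 1.22 to 1.40%).

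Counts on all 83 genes took a larger share of the library after MOV. The share was 1.23, 1.34, 1.31, 1.30 and 1.33% in vehicle sham mice and 1.22, 1.34, 1.39, 1.40 and 1.26% in D + Q sham mice. It was 1.74, 1.64, 1.64, 2.07 and 1.74% in vehicle MOV mice and 1.68, 1.60, 1.99, 1.67 and 1.73% in D + Q MOV mice. The sham and MOV ranges did not overlap, and the ratio of the group means was 1.35 in vehicle and 1.31 in D + Q mice. A share of all counts also moves with the genes that take the rest. Mitochondrial genes took 12.9 to 16.2% of counts in sham mice and 9.27 to 11.1% in MOV mice, and the TMM factors were 0.829 to 0.886 in sham and 1.06 to 1.24 in MOV libraries. With ribosomal RNA (Rn18s) and mitochondrial genes left out of the total, the mean shares were 1.56% and 1.55% in vehicle and D + Q sham and 1.98% and 1.95% in vehicle and D + Q MOV.

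Gene by gene, under TMM scaling, fewer of the ribosomal protein genes fell with MOV than of all genes. In vehicle mice 23 of the 80 rose with MOV (28.8%, against 30.7% of all 14601 genes tested) and 6 fell (7.5%, against 29.8%). With libraries scaled to total counts only, 77 rose (96.2%, against 52.6% of all genes) and 1 fell (1.25%, against 9.95%). With libraries scaled to the ribosomal protein genes themselves, 11 rose (13.8%, against 26.2%) and 16 fell (20%, against 36.4%). The median log2 fold change of the 80 was 0.11 and that of all genes tested -0.015, and 57 of the 80 were above 0 (71.2%, against 49% of all genes). With total counts only, these medians were 0.49 and 0.36, so the whole distribution shifted, and scaled to the ribosomal protein genes they were -0.024 and -0.14. The share of genes that fell was below the background under all 3 scalings, while the share that rose was near it with TMM, above it with total counts only and below it when scaled to the ribosomal protein genes.

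The 6 that rose most in vehicle mice were Rpl3, Rps4l, Rpl12, Rpl39, Rpl41 and Rps12. Rpl12, which sits at the base of the stalk where elongation factors bind, had 7.59, 7.60, 9.16, 8.39 and 6.18 CPM in vehicle sham and 10.7, 12.3, 12.96, 17.1 and 12.6 CPM in vehicle MOV mice (log2 fold change 0.77, SE 0.14, adjusted p = 1.98e-04). Rpl39, a small protein that lines the tunnel through which the new chain leaves, had 39.8, 47.5, 45.1, 42.7 and 42.7 CPM in vehicle sham and 65.4, 67.2, 52.2, 79.7 and 69.3 CPM in vehicle MOV mice (log2 fold change 0.63, SE 0.095, adjusted p = 4.32e-05). Rpl41, one of the shortest proteins a cell makes, had 184, 205, 192, 180.3 and 206 CPM in vehicle sham and 285, 291, 249.2, 343 and 279 CPM in vehicle MOV mice (log2 fold change 0.60, SE 0.084, adjusted p = 2.31e-05). For these 3 genes the groups did not overlap. Rps12, of the small subunit, had 144, 169, 151, 156 and 164 CPM and 193, 195, 188, 244 and 205 CPM in the same groups, again without overlap (log2 fold change 0.40, SE 0.081, adjusted p = 5.57e-04). On GRCm39 these genes lie at chr2:32851496-32855357 (Rpl12), chrX:36345092-36349130 (Rpl39), chr10:128383979-128387628 (Rpl41) and chr10:23661081-23663173 (Rps12). Rps4l is treated with its paralog further on.

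The 6 that fell in vehicle mice were Rpl3l, Rpl4, Rpl5, Rpl23a, Rps25 and Rpl36, while with total counts only Rpl3l fell, Rpl23a, Rps25 and Rpl36 rose, and Rpl4 (0.060) and Rpl5 (0.089) were above 0 without passing the threshold. Rpl4, which reaches into the exit tunnel, had 642, 612, 616, 622 and 627 CPM in vehicle sham and 518, 500.1, 461, 485 and 517 CPM in vehicle MOV mice, without overlap (log2 fold change -0.32, SE 0.066, adjusted p = 7.25e-04). Rpl23a, at the tunnel's mouth where the signal recognition particle docks, had 289, 293, 275, 295 and 305 CPM and 259.5, 245, 241, 266 and 239 CPM, also without overlap (log2 fold change -0.21, SE 0.064, adjusted p = 0.0113). Rpl5, which binds Mdm2 when ribosome assembly is disturbed, had 26.6, 17.6, 23.2, 23.8 and 23.7 CPM and 18.3, 19.7, 16.9, 18.3 and 20.2 CPM with overlap (log2 fold change -0.29, SE 0.10, adjusted p = 0.0214). The changes of Rps25 and Rpl36 were -0.18 and -0.18 on the log2 scale (adjusted p = 0.0301 and 0.0292). Leaving out 1 mouse at a time ended the call for Rps25 and Rpl36 in 6 of 10 fits each and for Rpl5 in 3, and without vehicle MOV mouse 1 or without vehicle MOV mouse 3 the 6 lower genes became 3.

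In D + Q mice 24 of the 80 rose with MOV (30%, against 34.4% of the 14913 genes tested) and 11 fell (13.8%, against 30.9%). With total counts only 76 rose (95%, against 56.3%) and 1 fell (1.25%, against 11.1%), and scaled to the ribosomal protein genes 10 rose (12.5%, against 30.3%) and 16 fell (20%, against 34.1%). The median log2 fold change was 0.032 for the 80 and 0.023 for all genes. These medians were 0.40 and 0.39 with total counts only, -0.055 and -0.065 scaled to the ribosomal protein genes and -0.016 and -0.0079 with all 20 mice in 1 fit, so the sign depended on the setting. Leaving out 1 mouse at a time, the median of the 80 was 0.0050 (without D + Q MOV mouse 3) to 0.076 (without D + Q MOV mouse 2). The 6 largest rises were those of vehicle mice: Rpl3, Rps4l, Rpl12 (0.55 on the log2 scale, SE 0.12), Rpl41 (0.54, SE 0.093), Rpl39 (0.53, SE 0.064) and Rps12 (0.48, SE 0.077). Among the largest falls were Rpl3l, Rpl4 (-0.31, SE 0.058), Rpl36al (-0.25, SE 0.058), Rps2 (-0.23, SE 0.055) and Rpl36 (-0.21, SE 0.065). With total counts only Rpl3l fell, Rps2 rose, and Rpl4, Rpl36al and Rpl36 were above 0 without passing the threshold. Rps2, at the mouth of the channel where the message enters, had 525, 523, 573, 523 and 544 CPM in D + Q sham and 443, 419, 462, 442 and 445 CPM in D + Q MOV mice, without overlap. Rpl41 had 173, 193, 191, 198 and 178 CPM in D + Q sham and 262, 254, 320.1, 269.4 and 203 CPM in D + Q MOV mice, so that its groups were apart by little.

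The MOV comparisons in vehicle and in D + Q mice share no animal. Of the genes that rose, 19 did so in both, which is 19 of 23 in vehicle and 19 of 24 in D + Q mice (82.6% and 79.2%, against 92.8% and 83.4% of all genes that rose). These 19 were 23.8% of the 80, against 28.5% of the 14442 genes tested in both. They were Rpl3, Rpl11, Rpl12, Rpl13a, Rpl17, Rpl19, Rpl34, Rpl36a, Rpl39, Rpl41, Rplp0, Rps4l, Rps7, Rps10, Rps12, Rps16, Rps19, Rps23 and Rps27a. Rps27a is a fusion of ubiquitin with a small subunit protein. Of the genes that fell, Rpl3l, Rpl4, Rpl23a and Rpl36 did so in both, 4 of 6 in vehicle and 4 of 11 in D + Q mice (66.7% and 36.4%, against 87.2% and 82.3% of all genes that fell) and 5% of the 80 (against 26.2% of all genes), and 0 of the 80 passed the threshold in opposite directions. Groups did not overlap for 17 genes higher and 4 lower in vehicle mice (21.2% and 5% of the 80, against 23.6% and 22.8% of all genes) and for 9 higher and 9 lower in D + Q mice (11.2% each, against 26.2% and 26.9%).

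**Figure D3:**
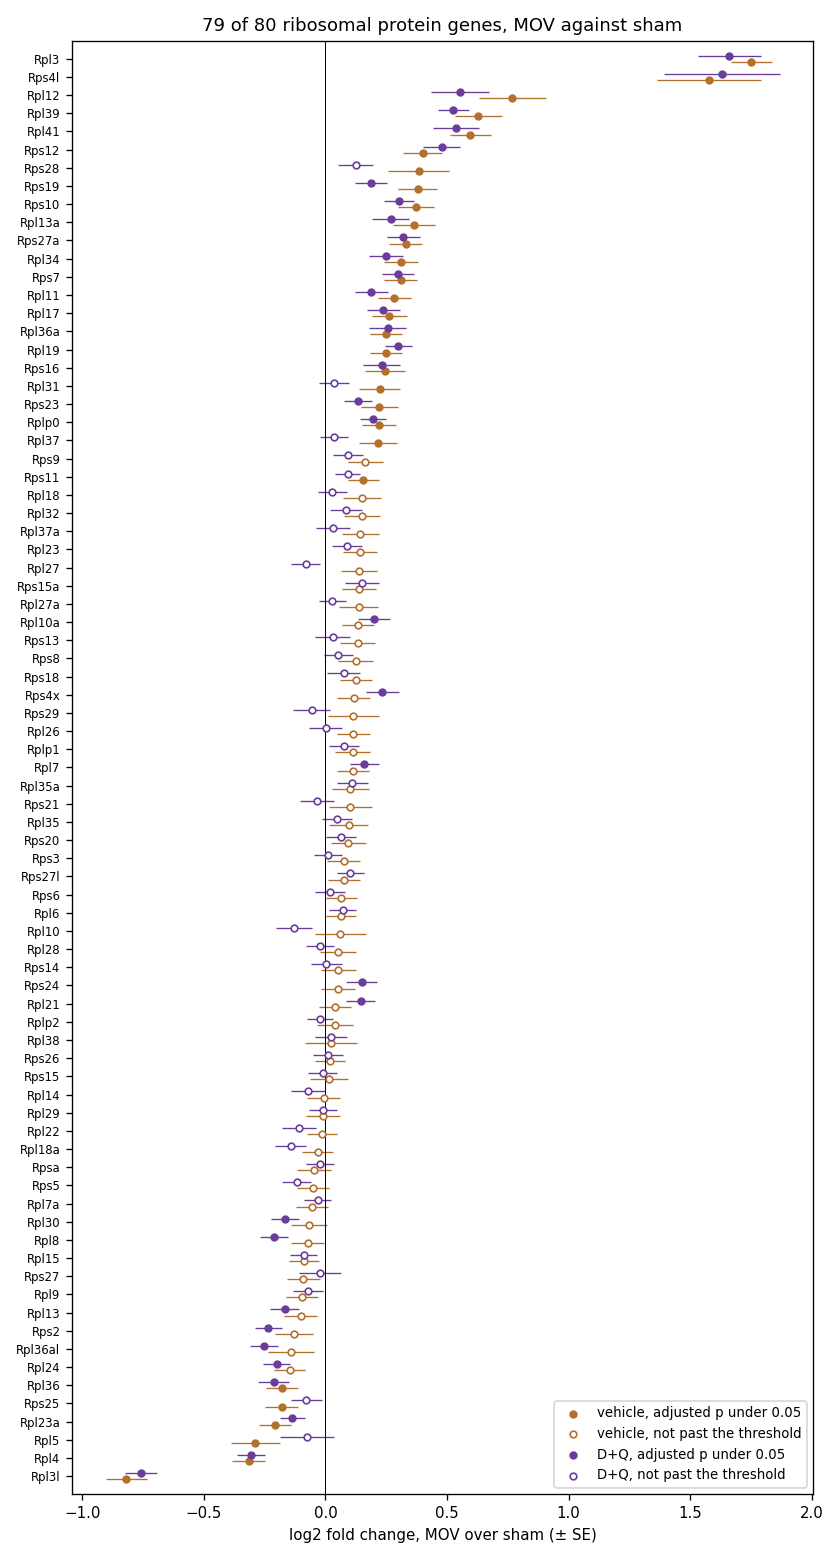
Log2 fold change of MOV over sham (x axis, ± SE) for 79 of the 80 ribosomal protein genes tested, sorted by the value in vehicle mice, with vehicle and D + Q mice in separate colors and filled points past an adjusted p of 0.05. Rpl3 at 1.75 and 1.66 and Rps4l at 1.58 and 1.63 stand at the top and Rpl3l at -0.82 and -0.76 at the bottom, and the others lie between -0.32 and 0.77; with total counts only, 79 of the 80 genes were above 0 in each comparison (all but Rpl3l) and 77 and 76 passed as higher.

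Under TMM scaling, genes of both subunits rose and fell. Of all genes tested, 30.7% rose and 29.8% fell in vehicle mice and 34.4% rose and 30.9% fell in D + Q mice. With total counts only, the 1 gene of the 80 that fell in each comparison was Rpl3l, of the large subunit. In vehicle mice 13 of 48 large subunit genes rose and 5 fell (median log2 fold change 0.10), and 10 of 32 small subunit genes rose and 1 fell (0.12). In D + Q mice 14 large subunit genes rose and 9 fell (0.029), and 10 small subunit genes rose and 2 fell (0.069).

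Of the stalk proteins, which carry elongation factors to the ribosome, Rplp0 rose in both comparisons, and its paired partners Rplp1 and Rplp2 did not pass the threshold. Rplp0 had 670.0, 733, 691, 669.7 and 678 CPM in vehicle sham and 826, 865, 759.6, 757 and 767 CPM in vehicle MOV mice (log2 fold change 0.22, SE 0.071, adjusted p = 0.014). The changes of Rplp1 were 0.11 and 0.08 and those of Rplp2 0.04 and -0.02 on the log2 scale in vehicle and D + Q mice (all adjusted p of 0.187 or more). Rps6, the protein that S6 kinase phosphorylates downstream of mTORC1, had a change of 0.07 (SE 0.063, adjusted p = 0.385) in vehicle and 0.02 (SE 0.062, adjusted p = 0.8) in D + Q mice. Rpsa, also known as the laminin receptor, had -0.05 and -0.02. Rpl38, known for its role in the translation of Hox messages, had 0.02 and 0.02, both within 1 SE of 0.

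Besides Rpl3l and Rpl3, 6 more paralog pairs were set side by side, with paralogs of Rps4x, Rpl36a, Rpl22, Rps27, Rpl7 and Rpl39. Ratios are of counts and are not corrected for length, so they are compared between groups only. Rps4l, the paralog of Rps4x, had 1.38, 1.61, 1.61, 2.16 and 1.94 CPM in vehicle sham and 4.78, 3.53, 5.23, 7.22 and 4.94 CPM in vehicle MOV mice, without overlap (log2 fold change 1.58, SE 0.21, adjusted p = 1.48e-05). It had 1.26, 1.04, 2.05, 1.94 and 2.39 CPM in D + Q sham and 5.95, 2.98, 6.16, 5.45 and 5.80 CPM in D + Q MOV mice (log2 fold change 1.63, SE 0.24, adjusted p = 1.00e-05). Its counts came to 0.0077 of those of Rps4x in vehicle sham and 0.021 in vehicle MOV mice, and since the pair shares a run of 35 coding bases, the split of reads between them is uncertain. Rps4x itself did not pass the threshold in vehicle mice (0.12, adjusted p = 0.15) and rose in D + Q mice (0.23, adjusted p = 0.00616).

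The ratio of Rpl36al to Rpl36a was 1.29 ± 0.0358 (SD, n = 5) in vehicle sham, 1.26 ± 0.0789 in D + Q sham, 0.991 ± 0.193 in vehicle MOV and 0.892 ± 0.11 in D + Q MOV mice. Rpl36a rose with MOV in both comparisons (0.25 and 0.26), and Rpl36al fell in D + Q mice, whereas in vehicle mice its -0.14 missed the threshold (adjusted p = 0.208). One mouse decided that: vehicle MOV mouse 5 had 94.2 CPM of Rpl36al and the other 4 had 65.3 to 70.6, and without it the change was -0.23 and passed the threshold. Rpl22l1, outside the name rule, changed by -0.25 (adjusted p = 0.189) in vehicle mice and fell in D + Q mice (-0.45, adjusted p = 2.48e-04), while Rpl22, its paralog, had -0.01 and -0.11 (adjusted p = 0.871 and 0.184). Vehicle MOV mouse 5 was high in Rpl22l1 as well, at 37.4 CPM beside 21.1 to 27.3 CPM in the other 4. The part of this mouse in the missed call was not tested. The ratio of Rps27l to Rps27 ranged from 0.441 to 0.622 and that of Rpl7l1 to Rpl7 from 0.103 to 0.148 over the 20 mice, with sham and MOV overlapping in both. Rpl39l had at most 10 counts in any mouse beside Rpl39.

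**Figure D4:**
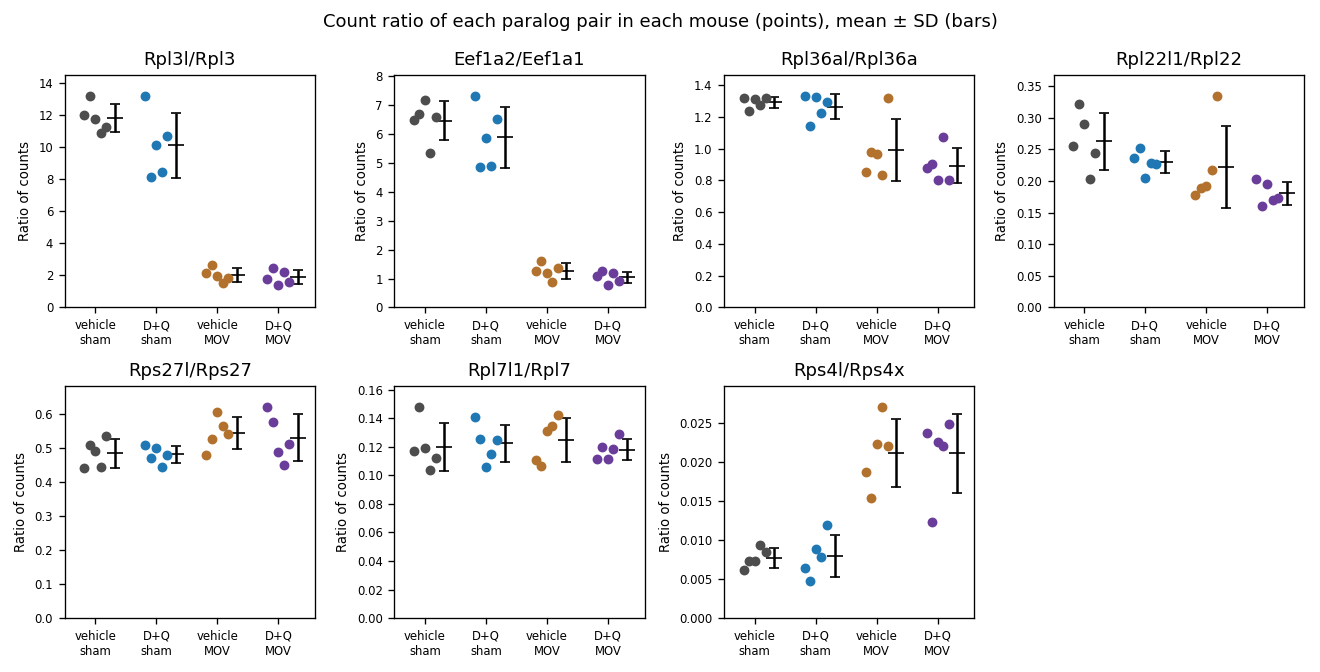
Ratio of the counts of 7 paralog pairs (y axes, linear from 0) in each of 20 mice, with points for mice and bars for the mean ± SD of 5 mice. Rpl3l/Rpl3 and Eef1a2/Eef1a1 drop from sham to MOV without overlap (means 11.8 to 2.02 and 6.46 to 1.26 in vehicle mice), Rps4l/Rps4x rises, and Rps27l/Rps27 and Rpl7l1/Rpl7 overlap between surgeries.

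The elongation factor that delivers transfer RNA to the ribosome has a muscle form too, and it was set beside the Rpl3 pair. Eef1a1, the general form, had 236, 228, 223, 284 and 231 CPM in vehicle sham and 966, 943, 918, 1194 and 919 CPM in vehicle MOV mice (log2 fold change 2.05, SE 0.098, adjusted p = 1.06e-09). It rose in D + Q mice from 218 to 321 CPM to 912 to 1258 CPM (1.99 on the log2 scale, SE 0.11). Eef1a2, the form of adult muscle and neurons, had 1528, 1525, 1602, 1518 and 1526 CPM in vehicle sham and 1219, 1515, 1094, 1046 and 1254 CPM in vehicle MOV mice and fell (log2 fold change -0.32, SE 0.095, adjusted p = 0.00916), a sign that turned with total counts only. It fell in D + Q mice by 0.49 on the log2 scale (SE 0.069, adjusted p = 6.18e-06). The count ratio of Eef1a2 to Eef1a1 went from 6.46 ± 0.679 (SD, n = 5) to 1.26 ± 0.266 in vehicle and from 5.89 ± 1.05 to 1.05 ± 0.194 in D + Q mice, with no overlap between sham and MOV.

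Other factors whose messages carry the TOP motif went both ways. Of 14 on the list (elongation and initiation factors, Pabpc1, Tpt1, Npm1, Hnrnpa1 and Nap1l1), 3 rose and 7 fell with MOV in vehicle mice and 4 rose and 7 fell in D + Q mice, with medians of -0.13 and -0.15 on the log2 scale, but with total counts only 8 rose and 0 fell in each, and all 7 falls in vehicle mice and 4 of 7 in D + Q mice turned sign. Over all genes tested, 30.7% rose and 29.8% fell in vehicle mice and 34.4% and 30.9% in D + Q mice. With total counts only these shares were 52.6% and 9.95%, and 56.3% and 11.1%. Pabpc1, the poly(A) binding protein, rose (0.96 and 0.91), and Eef2, which moves the ribosome along the message, fell (-0.27 and -0.47), as did the initiation factor subunits Eif3e (-0.31 and -0.26), Eif3f (-0.25 and -0.38) and Eif3h (-0.24 and -0.25). Of the genes of ribosomal proteins or their partners that the name rule misses, Fau, a fusion with a small subunit protein, rose (0.36 and 0.23), and Rpl22l1 fell in D + Q mice. Rps3a1, Rack1, Rpl7l1, Rps27rt and Rps19bp1 passed in neither comparison.

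Of 12 genes that regulate ribosome production or TOP messages, 2 rose and 6 fell with MOV in vehicle mice and 3 rose and 9 fell in D + Q mice, while with total counts only 6 rose and 3 fell and 3 rose and 4 fell. Beside these stand the shares over all genes tested. Under TMM scaling, 30.7% rose and 29.8% fell in vehicle mice and 34.4% and 30.9% in D + Q mice. With total counts only, 52.6% rose and 9.95% fell, and 56.3% and 11.1%. Myc, which drives ribosome production, rose (0.95, adjusted p = 0.0153, and 1.49, adjusted p = 0.00416), and so did the kinase Akt1 (0.58 and 0.58). Eif4ebp2, a brake on initiation, fell (-1.03 and -1.03), as did Eef2k, the kinase that inhibits Eef2 (-0.79 and -0.74), Larp1 (-0.53 and -0.55) and Tsc1, an inhibitor of mTORC1 (-0.63 and -0.69). Unlike Myc and Akt1, the growth signaling genes Mtor, Rps6kb1 and Rptor had lower means with MOV. Mean levels in sham and MOV mice were 58.5 and 47.5 CPM on vehicle and 60.5 and 43.7 CPM on D + Q for Mtor. For the S6 kinase gene Rps6kb1 they were 41.0 and 29.0, and 40.1 and 31.4 CPM. For Rptor, of mTORC1, they were 54.7 and 49.5, and 54.1 and 44.0 CPM. In vehicle mice Rptor was not among the 6 that fell, and its levels overlapped (47.8 to 58.1 CPM in sham and 39.8 to 60.7 CPM in MOV mice). With total counts only, Mtor in vehicle mice and Rps6kb1 and Rptor in D + Q mice turned sign. Larp1, Myc, Mtor, Rps6kb1 and Rptor were named after their values were seen. These are levels of messages and give no measure of kinase activity.

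The start of the ribosomal protein genes was read from RefSeq promoter windows on GRCm38.p6, since the TOP motif is what the group is known to share. Of the 83 genes, 61 matched, with 73 windows. An unbroken run of at least 8 C or T letters (no other letter counted) lay within 10 bases before to 20 bases after the start in 24 of the 73 windows (32.9%), against 11.2% of 32851 windows of all genes. The windows shown are those of the 4 genes with the largest rise in vehicle mice that matched (Rpl12, Rpl39, Rpl41 and Rps12), of the 2 with the largest fall (Rpl3l and Rpl4) and of Rps6. Each holds 40 bases before and 20 from the annotated start onward on the strand of the gene, and capitals mark each run of 8 or more C or T letters that reaches into the counted bases.
Rpl12 (chr2:32961672-32961731, plus strand): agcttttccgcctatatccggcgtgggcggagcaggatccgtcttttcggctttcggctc
Rpl39 (chrX:37085203-37085262, minus strand): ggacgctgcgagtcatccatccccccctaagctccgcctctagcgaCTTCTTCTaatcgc
Rpl41 (chr10:128549149-128549208, minus strand): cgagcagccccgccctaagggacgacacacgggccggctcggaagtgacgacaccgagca
Rps12 (chr10:23787190-23787249, minus strand): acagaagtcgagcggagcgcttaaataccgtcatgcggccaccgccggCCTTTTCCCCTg
Rps6 (chr4:86857348-86857407, minus strand): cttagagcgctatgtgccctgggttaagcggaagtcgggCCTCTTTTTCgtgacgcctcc
Rpl4 (chr9:64173347-64173406, plus strand): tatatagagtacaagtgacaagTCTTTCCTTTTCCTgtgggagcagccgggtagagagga
Rpl3l (chr17:24727786-24727845, plus strand): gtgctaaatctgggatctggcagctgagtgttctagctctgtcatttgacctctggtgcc
Rpl39, Rps12 and Rps6 have a run of 8, 11 and 10 letters near the start and Rpl12 one of 7 letters. The run of Rpl4 begins upstream of the counted bases, which hold its last 6 letters, and Rpl41 and Rpl3l have none of 8 letters in these windows. Rpl3 is not in the table. Of the 59 tested genes with a window, 23 had a run at the start, of which 6 rose and 0 fell with MOV in vehicle mice (median 0.10 on the log2 scale), and 36 had none, of which 12 rose and 4 fell (0.12). The numbers in D + Q mice were 7 and 0 of 23 (0.048) and 11 and 6 of 36 (0.030). Of all genes tested, 30.7% rose and 29.8% fell in vehicle mice and 34.4% rose and 30.9% fell in D + Q mice. The 4 without a run that fell in vehicle mice were Rpl3l, Rpl4, Rpl5 and Rps25. Within the 60 bases, Rps25 and Rpl5 have runs of 14 and 9 letters, but in the counted bases their longest are 4 and 3. The split of falling genes thus depends on where counting begins. The medians of genes with and without a run were close in both comparisons. A run so counted is not the TOP motif itself, since no C at the start was required. Genes such as Rpl12 and Rpl4 were counted as having none. The medians therefore do not compare messages with and without the motif. Of the 2 annotated Rpl3l starts, the one shown has in its upstream 250 bases CAGCTG, a palindromic match to the E-box letters CANNTG that myogenic factors bind, as have 13% of such windows of all genes, and the other start has none. This is a match of letters and not a measured site.

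Cell type markers moved with MOV beside these genes. In vehicle and D + Q mice, 8 and 9 of 10 adult fast fiber genes fell, all 6 genes of regenerating or developing fibers, all 8 macrophage and all 6 fibroblast markers rose in both, and 4 of 6 endothelial markers rose in both. These directions held with total counts only, save for Acta1 of the fast fiber list in D + Q mice. Summed fast fiber genes were at 156224 to 197665 CPM in sham and 81607 to 101569 CPM in MOV mice, macrophage markers at 53.1 to 147 and 272 to 815 CPM, fibroblast markers at 384 to 983 and 4531 to 11081 CPM, and genes of regenerating fibers at 20.4 to 35.1 and 288 to 747 CPM. Endothelial markers were at 129 to 202 and 193 to 257 CPM, satellite cell markers at 28.8 to 38.8 and 41.0 to 52.0 CPM, and slow fiber genes at 3138 to 6231 and 5745 to 9837 CPM. The Schwann cell, pericyte and adipocyte lists had 1, 1 and 0 genes higher and 0, 0 and 3 lower in vehicle mice and 1, 1 and 0 higher and 1, 1 and 1 lower in D + Q mice. Satellite cell markers rose in 4 of 5, slow and oxidative fiber genes in 4 of 6 and other leukocyte markers in 1 of 3 tested, and in D + Q mice these were 4 of 5 (with 1 lower), 6 of 6 and 2 of 3. The shares over all genes tested were 30.7% higher and 29.8% lower in vehicle mice and 34.4% and 30.9% in D + Q mice. No marker was at 0 counts in all mice of a group. In bulk muscle a change in the number of cells of a type and a change in RNA per cell cannot be told apart, and the part of these shifts in the changes of ribosomal protein genes was not tested.

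As a description of which genes followed Rpl3l, all 15699 other genes with enough counts were ranked by Pearson's r with it over the 20 mice on log2(CPM + 0.5). The 20 mice fall into sham and MOV clusters, so r was also taken within the 10 mice of each surgery, 5 on vehicle and 5 on D + Q. The 4 most alike were Slc25a4, the muscle ADP/ATP carrier (r = 0.994 over all, 0.912 in sham and 0.927 in MOV mice), Slc25a12, an aspartate/glutamate carrier (0.992, 0.882 and 0.907), Adsl, of purine synthesis (0.992, 0.894 and 0.927), and Idh3g, of the TCA cycle (0.992, 0.859 and 0.921). The 4 most opposite were Cnn3 (-0.992, -0.840 and -0.958), Ywhaq (-0.990, -0.812 and -0.904), Map4k4 (-0.990, -0.750 and -0.960) and Rcn1 (-0.990, -0.920 and -0.864). Rpl3 itself had r = -0.970 with Rpl3l over all mice, -0.275 within sham and -0.736 within MOV mice. Eef1a1 followed Rpl3 (0.993, 0.850 and 0.756), the second closest of all genes over the 20 mice. The muscle forms Eef1a2 and Rpl3l went together over all and within MOV mice but not within sham mice (0.925 over all, -0.052 in sham and 0.899 in MOV mice). Eef1a1 with Eef1a2 had -0.885, 0.019 and -0.589.

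D + Q against vehicle in sham muscle asks what the drugs did without overload. None of the 80 ribosomal protein genes passed the threshold in edgeR (0 genes, against 0.215% of the 13926 genes tested). DESeq2 called 0 of them as well, and 124 genes in all. At an unadjusted p under 0.05 there were 2 of 80 (2.5%, against 10.2% of all genes). These were Rpl10, which is added last to the large subunit, and Rpl3l. Rpl10 had 115, 90.4, 95.2, 106 and 88.0 CPM in vehicle sham and 95.0, 126, 126, 114 and 114 CPM in D + Q sham mice (log2 fold change 0.21, SE 0.08, adjusted p = 0.394), and Rpl3l was lower by 0.15 on the log2 scale (SE 0.061, adjusted p = 0.431), with overlap between groups in both. Reads of Rpl10 are uncertain, since rows named as its pseudogenes held 139 to 177% of its own CPM. The third smallest p was that of Rpl21 (-0.10, adjusted p = 0.52). Rpl3 had 0.11 (SE 0.091, adjusted p = 0.714), and the median of the 80 was -0.0054 beside -0.0041 for all genes, with 34 of the 80 above 0 (42.5%, against 48.6%).

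D + Q against vehicle in MOV muscle asks what the drugs did to the overloaded muscle. Again 0 of the 80 passed the threshold in edgeR or in DESeq2, against 0% of the 15238 genes tested in edgeR. DESeq2 called 13 genes in all here. The paper's own DESeq2 analysis of these groups reported far more genes at the same threshold. At an unadjusted p under 0.05, 3 of 80 were lower and 0 higher (3.75%, against 4.61% of all genes lower and 8.79% in either direction). Rpl27, of the large subunit, had 151, 156, 144, 178 and 179.9 CPM in vehicle MOV and 140.1, 132, 151, 148 and 138 CPM in D + Q MOV mice (log2 fold change -0.20, SE 0.079, adjusted p = 0.535). Rpl31, at the tunnel's mouth, had 156, 160.5, 134, 172 and 188 CPM and 131, 128, 154, 146 and 142 CPM (log2 fold change -0.21, SE 0.09, adjusted p = 0.547). Rpl37, of the large subunit, had 119, 117, 94.5, 129.7 and 122 CPM and 94.2, 102, 112, 106 and 100.4 CPM (log2 fold change -0.19, SE 0.085, adjusted p = 0.554). In all 3 the groups overlapped. Rplp0 was the only one of the 80 whose groups did not overlap, with 826, 865, 759.6, 757 and 767 CPM in vehicle MOV and 725, 732, 736, 719 and 744 CPM in D + Q MOV mice (log2 fold change -0.13, SE 0.074, adjusted p = 0.62), where 0.755% of all genes were lower without overlap.

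Rpl3l and Rpl3 were at -0.12 (SE 0.09) and -0.0058 (SE 0.11) in the same comparison (adjusted p = 0.71 and 0.991), and the sign for Rpl3 turned with total counts only (0.049). The 80 genes leaned to one side together: 5 were above 0 (Rpl5, Rpl7a, Rps4l, Rps4x and Rps27) and 75 below, against 50.5% of all genes above 0, and their median was -0.077 beside 0.0020. How many leaned depended on scaling, since 28 of 80 were above 0 with total counts only, 21 with offsets for length and GC content and 39 when libraries were scaled to the ribosomal protein genes. It depended on single mice too: without vehicle MOV mouse 4, the one with the highest share of counts on these genes, 19 of 80 were above 0 and the median was -0.043, and without the other mice in turn 2 to 11 were above 0 with medians of -0.11 to -0.056. The 80 genes were measured in the same libraries and are not 80 independent observations, so no test was made of the lean. Beside it, Rn18s took 0.697 to 0.959% of counts in vehicle MOV and 1.01 to 1.69% in D + Q MOV mice without overlap, and summed fibroblast markers were at 4531 to 9166 and 8187 to 11081 CPM. The part of either in the lean was not tested.

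**Figure D5:**
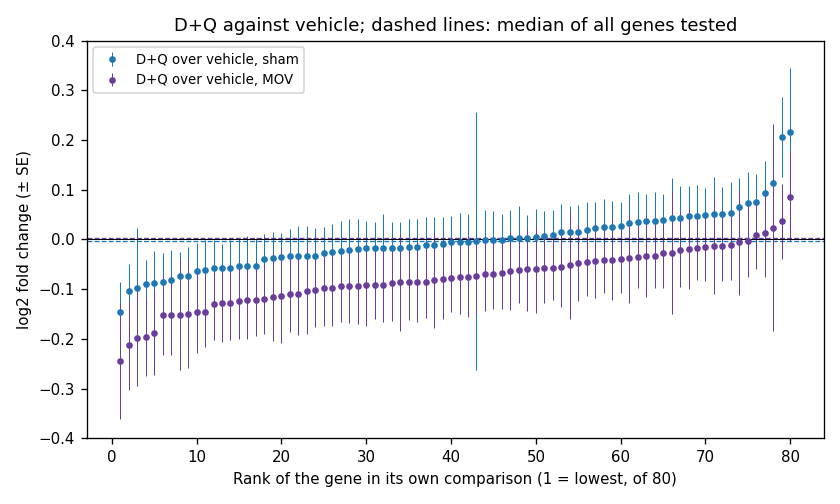
Log2 fold change of D + Q over vehicle (y axis, ± SE) for the 80 ribosomal protein genes tested, each comparison sorted by its own values (x axis, rank), in sham and in MOV mice, with dashed lines at the median of all genes tested. In MOV mice 75 of 80 points lie below 0 under TMM scaling (52 with total counts only) and in sham mice 46 of 80, and no point passed an adjusted p of 0.05.

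The difference between the MOV response of D + Q mice and that of vehicle mice was tested as an interaction over all 20 mice. None of the 80 passed (0 in edgeR and 0 in DESeq2, against 0.0127% of the 15700 genes tested), and 5 did at an unadjusted p under 0.05 (6.25%, against 3.17% of all genes lower and 5.71% in either direction). Each of the 5 had a lower log2 fold change with MOV in D + Q than in vehicle mice. These were Rpl27 (-0.25, SE 0.093, adjusted p = 0.786), Rpl37 (-0.22, adjusted p = 0.844), Rps19 (-0.23, adjusted p = 0.855), Rpl31 (-0.22) and Rpl8 (-0.17), the last 2 named after their values were seen. For Rpl3l the interaction was 0.03 (SE 0.11) and for Rpl3 -0.13 (SE 0.15), with adjusted p of 0.996 and 0.954. The median of the 80 was -0.087 beside -0.012 for all genes, and 13 of 80 were above 0 (47.4% of all genes). Without vehicle MOV mouse 4 the median was -0.046 and 22 of 80 were above 0, with offsets for length and GC content -0.045 and 20, and scaled to the ribosomal protein genes -0.010 and 35.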

How the data were processed

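Plantaris RNA of 20 mice, 5 in each group as the labels give them and numbered 1 to 5 there, was sequenced. The deposited table holds estimated counts per gene, which the authors made in Partek with STAR 2.7.8a on GRCm39 and a quantification that shares multiply mapped reads between transcripts, so values need not be whole (24.8% were not, at a tolerance of 0.001) and near-identical copies trade reads. The authors' filter removed genes under 10 counts.

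Counts were rounded and a gene was tested where 5 or more mice of a fit had 10 or more counts, with edgeR 4.0.16 (quasi-likelihood, robust, TMM) in R 4.3.3, 10 mice to a comparison and all 20 for the interaction, with Benjamini-Hochberg adjustment over all genes. The ratio of Rpl3l to Rpl3 was compared by two-sided exact permutation. CPM use TMM factors over all 20 mice. Lengths and positions came from GENCODE vM39, promoter windows from RefSeq on GRCm38.p6, and letters only were read from the latter.

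The ribosomal protein genes, the other gene lists and the tests were chosen with earlier results of these data known. Named were Rpl3 and Rpl3l, the paralog pairs, Rplp0, Rplp1, Rplp2, Rps6, Rpsa, Rpl22 and Rpl38, the 6 largest rises and 6 largest falls past the threshold in a comparison or, where fewer than 3 passed, the 3 smallest p-values, up to 4 listed genes by smallest p and the 4 genes most like and most opposite to Rpl3l. Of the genes these rules give, 2 are not reported here by name. Alternatives were RLE factors, total counts, scaling to the ribosomal protein genes, other count minimums, DESeq2 1.42.0, limma-voom 3.58.1, all 20 mice in 1 fit, offsets for length and GC content, the replicate number as a block and leaving out single mice. The labels number the mice and do not say that a number is shared between groups. No pair of mice in a group agreed within counting noise, since the variance between them was at least 6.53 times that of counting.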

Additional observations from a re-analysis of the deposited data

Results flagged for a closer look

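In 8 of 144 groups of 5 mice examined, 1 mouse lay far from the other 4 (a gap over 0.71 of the group's range), where about 1 group in 20, or 7.2, would do so by chance. Rpl36al was at 94.2 CPM in vehicle MOV mouse 5 and 65.3 to 70.6 CPM in the others. Rpl39 was at 41.7 CPM in D + Q sham mouse 1 and 45.7 to 47.0 CPM in the others. Rps12 was at 238 CPM in D + Q MOV mouse 3 and 186 to 197 CPM in the others. Rps4l was at 2.98 CPM in D + Q MOV mouse 2 and 5.45 to 6.16 CPM in the others. Eef1a1 was at 284 CPM in vehicle sham mouse 4, with the others at 223 to 236 CPM, and at 1194 CPM in vehicle MOV mouse 4, with the others at 918 to 966 CPM. Eef1a2 was at 1602 CPM in vehicle sham mouse 3 and 1518 to 1528 CPM in the others. The share of counts on the 83 ribosomal protein genes was 2.07% in vehicle MOV mouse 4 and 1.64 to 1.74% in the others.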

How the results depend on the processing

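The rise of Rpl3, the fall of Rpl3l and the fall of their ratio with MOV kept direction and call under each alternative run, in vehicle and in D + Q mice. Leaving out 1 mouse at a time gave log2 fold changes of 1.71 to 1.83 and 1.58 to 1.75 for Rpl3, of -0.85 to -0.76 and -0.78 to -0.72 for Rpl3l and of -2.67 to -2.47 and -2.53 to -2.33 for the ratio, in vehicle and D + Q mice. It gave 18 to 33 genes higher and 3 to 6 lower in vehicle mice and 17 to 27 and 8 to 13 in D + Q mice. Over all genes, the same fits called 7929 to 8504 in vehicle mice (3987 to 4317 higher) and 8850 to 9450 in D + Q mice (4541 to 5006 higher). Leaving out 1 mouse also gave a ratio difference of -0.344 to -0.169 for D + Q in sham mice and of -0.209 to 0.000750 in MOV mice (positive without vehicle MOV mouse 2), and mean shares of counts of 1.29 to 1.32%, 1.30 to 1.35%, 1.69 to 1.80% and 1.67 to 1.77% in sham mice on vehicle, sham mice on D + Q, MOV mice on vehicle and MOV mice on D + Q. Signs also turned in leave-outs for values near 0: Rpl22 (-0.034 to 0.027) and Rpl38 (-0.037 to 0.13) in vehicle mice, Rpl38 (-0.010 to 0.073), Rplp2 (-0.055 to 0.021), Rps27 (-0.070 to 0.048), Rps6 (-0.017 to 0.056) and Rpsa (-0.049 to 0.013) in D + Q mice, Rpl3 for D + Q in MOV mice (-0.077 to 0.061) and Rpl3l in the interaction (-0.020 to 0.058).

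With total counts only, 77 genes rose with MOV and 1 fell in vehicle mice, and 76 rose and 1 fell in D + Q mice. The median log2 fold change of all genes tested was then 0.36 in vehicle and 0.39 in D + Q mice. Log2 fold changes that turned sign were, in vehicle mice, Rpl4 0.060, Rpl5 0.089, Rpl23a 0.17, Rps25 0.20, Rpl36 0.20, Rpl36al 0.23, Rps27 0.29, Rpsa 0.33 and Rpl22 0.37. They were, in D + Q mice, Rpl4 0.061, Rpl36al 0.11, Rps2 0.13, Rpl36 0.15, Rpl22 0.26, Rplp2 0.34, Rps27 0.34 and Rpsa 0.35, and Rpl3 for D + Q in MOV mice was 0.049. Scaled to the ribosomal protein genes, 11 rose and 16 fell in vehicle mice, with Rps27l -0.050, Rps4x -0.011, Rplp1 -0.017, Rplp2 -0.092, Rps6 -0.063 and Rpl38 -0.11. It left 10 rising in D + Q mice, with Rplp1 -0.011, Rps6 -0.065 and Rpl38 -0.067, and Rpl3 for D + Q in MOV mice was 0.067. By construction this scaling sets the mean of these genes level.

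With a minimum of 50 counts, 36 of the 80 genes rose in vehicle mice, beside 3628 higher genes among the 7343 called in all. Rpl22 was then 0.032 in vehicle mice, and in D + Q mice Rps27 was 0.016, Rplp2 0.016 and Rpsa 0.018. Offsets for length and GC content gave 10 lower genes of the 80 in vehicle and 18 in D + Q mice. Over all genes 9069 were then called in vehicle mice, 4157 of them higher, and 10108 in D + Q mice, 4486 of them higher. Values that turned sign were Rplp1 -0.023, Rplp2 -0.13 and Rpl38 -0.076 in vehicle mice, Rps27 0.045, Rplp1 -0.027 and Rpl38 -0.049 in D + Q mice and Rpl3 at 0.044 for D + Q in MOV mice. Together with the replicate block these were -0.023, -0.13, -0.084, 0.043, -0.027, -0.049 and 0.038. RLE factors gave 0.0024 for Rpl22 in vehicle mice, limma-voom -0.028 for Rpl38 in vehicle mice, and the fit of all 20 mice -0.028 for Rps6 and -0.024 for Rpl38 in D + Q mice and 0.0012 for Rpl3 for D + Q in MOV mice. Without Rn18s and mitochondrial genes the shares were 1.56, 1.55, 1.98 and 1.95% in the order above, and without Rpl3l the share in vehicle sham was 1.26%. For these settings the cause of a change was not tested.

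Mice with the same number showed no steady shared deviation (correlations of -0.21 to 0.23, with the own number best in 3 of 20). With 5 mice a group this cannot exclude that a number marks something shared. The labels name no pairing, and none was assumed. With the replicate number as a block, 22 genes rose and 4 fell in vehicle mice (Rps25 and Rpl36 had adjusted p of 0.0513 and 0.0515) and 21 rose and 10 fell in D + Q mice. Over all genes this fit called 8694 in vehicle mice, 4419 of them higher, and 9411 in D + Q mice, 4997 of them higher. In all, 507 of the 540 values recomputed for counts of genes, Rpl3, Rpl3l, their ratio and the share of counts were taken as unchanged. For Rpl3, Rpl3l and, where tested, their ratio this meant the same direction and call. For counts of genes it meant a number within a fixed factor of the main one, and for shares a mean within the group's SD. The counts for D + Q against vehicle and for the interaction were 0 in every setting, so these could not differ much. The 5 mice a group limit small changes, and low genes such as Rpl12, Rpl5 and Rps4l have the fewest counts behind them.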

Other observations

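Of the 83 genes, 3 were too low to test. Rpl39l, the paralog of Rpl39, had 59 counts over the 20 mice and 0 in all 5 vehicle sham mice, where a count of 0 allows up to 3 counts a library (counting error only). It was at 0 to 0.12 CPM in D + Q sham, 0 to 0.44 CPM in vehicle MOV and 0.13 to 0.38 CPM in D + Q MOV mice. Rpl6l had 139 counts in all and at most 19 in a mouse, and Rpl32l had 31 and at most 4.

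The 151 genes named as ribosomal protein pseudogenes took counts worth 1.40 to 1.88% of those on the 83 genes. For most genes, rows so named held little. Those of Rpl10 held 139 to 177% of its CPM, those of Rps23 13.5 to 16.6% and those of Rpl31 7.27 to 12.4%. The levels of these 3 genes are thus uncertain. Copies under other names were not counted, such as Gm9176, a processed pseudogene that overlaps Rpl41 on the same strand. How many reads of the other genes, low ones such as Rpl12 and Rpl5 included, went to such copies is not known.

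As a share of the counts on the 83 genes, Rpl3l went from 3.35 ± 0.244% (SD, n = 5) in vehicle sham to 1.83 ± 0.219% in vehicle MOV mice, and Rpl3 from 0.284 ± 0.00991% to 0.915 ± 0.0837%. The same shares in D + Q mice went from 3.07 ± 0.255% to 1.78 ± 0.213% for Rpl3l and from 0.310 ± 0.0440% to 0.962 ± 0.102% for Rpl3. The sum of both thus fell as a share while the balance moved toward Rpl3.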
